A study of Mus musculus with 6 samples.

Results

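The 7 genes described here encode secreted proteins of the mouse oocyte: the zona pellucida glycoproteins Zp1, Zp2 and Zp3, which form its coat, the metalloprotease ovastacin (Astl), which modifies that coat, and the oocyte-secreted proteins Oosp1, Oosp2 and Oosp3. They were chosen by gene name and make up 7 of the 49315 genes in the deposited count table, and all 7 passed the filter on low counts that left 16060 tested genes. RNA was sequenced from GV oocytes (full-size oocytes whose nucleus, the germinal vesicle, has not yet broken down) of 3 Control mice and 3 mice with an oocyte-specific conditional knockout of Rpa1 (Rpa1 OcKO). Per the series' design text and the labels, all animals were 4 to 5 weeks old and primed with PMSG, and each library is a pool of about 20 oocytes of 1 mouse without cumulus cells. Not given in the sources used here were the strain, the Cre line and the Control genotype. Rpa1 encodes the large subunit of the complex that binds single-stranded DNA, and the series asks about its role in DNA damage repair during oogenesis.

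The zona pellucida is the extracellular coat of the egg. ZP1, ZP2 and ZP3 share a ZP domain, are cut from the membrane during secretion and polymerise into filaments, with ZP2 and ZP3 as the repeating units and ZP1 as a cross-linker. ZP2 carries the region that sperm bind. Ovastacin is stored in cortical granules and released at fertilisation, when it cleaves ZP2 so that no further sperm bind. The OOSP proteins are small secreted proteins related to PLAC1, and their work in the egg is less well defined. Oocytes transcribe all of these genes while they grow, and FIGLA, a basic helix-loop-helix factor that binds E-boxes, is required for the zona genes.

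Promoters of 4 of the 7 members are in the RefSeq table used here (GRCm38.p6, 250 bases before to 50 bases after a start site): Zp3, Oosp1, Oosp2 and Astl, the last with 2 start sites. Zp1, Zp2 and Oosp3 are not in it. The sequences are shown because E-boxes, searched as CANNTG on both strands, are the known element of zona promoters, and because several members vary together across libraries. They run 5′ to 3′ on the strand of the gene, with each CANNTG in capitals. They lie at chr5:135979855-135980154 (plus strand, Zp3), chr2:127341386-127341685 (plus, the second Astl start site), chr19:11691002-11691301 (minus, Oosp1) and chr19:11660510-11660809 (minus, Oosp2).
Zp3: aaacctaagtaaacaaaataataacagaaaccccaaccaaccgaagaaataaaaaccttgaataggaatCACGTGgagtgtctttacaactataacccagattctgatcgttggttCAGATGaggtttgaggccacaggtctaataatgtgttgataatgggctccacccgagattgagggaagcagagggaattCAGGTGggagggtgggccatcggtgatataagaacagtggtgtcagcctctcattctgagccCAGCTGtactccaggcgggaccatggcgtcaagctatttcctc
Astl: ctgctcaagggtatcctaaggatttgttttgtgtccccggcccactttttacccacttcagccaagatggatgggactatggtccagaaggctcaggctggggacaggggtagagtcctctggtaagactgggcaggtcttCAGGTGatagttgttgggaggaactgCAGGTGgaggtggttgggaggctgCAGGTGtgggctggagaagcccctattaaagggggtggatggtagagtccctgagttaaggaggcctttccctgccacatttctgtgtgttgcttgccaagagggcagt
Oosp1: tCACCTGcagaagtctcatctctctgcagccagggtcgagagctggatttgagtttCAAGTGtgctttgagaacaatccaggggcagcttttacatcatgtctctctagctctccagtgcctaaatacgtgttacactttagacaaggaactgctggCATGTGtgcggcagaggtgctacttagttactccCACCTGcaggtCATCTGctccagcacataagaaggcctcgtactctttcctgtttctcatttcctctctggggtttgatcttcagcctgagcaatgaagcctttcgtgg
Oosp2: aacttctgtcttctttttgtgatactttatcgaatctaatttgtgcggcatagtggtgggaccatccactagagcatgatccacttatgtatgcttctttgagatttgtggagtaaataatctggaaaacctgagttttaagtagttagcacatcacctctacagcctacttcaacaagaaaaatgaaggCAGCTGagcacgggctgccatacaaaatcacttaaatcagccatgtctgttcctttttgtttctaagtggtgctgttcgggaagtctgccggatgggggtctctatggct

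Positions are counted from the first transcribed base, and bases before it are negative. Zp3 held 4 matches to CANNTG, at positions -181, -134, -55 and 8, and its match at -55 was CAGGTG, a form contained in CANNTG. The second Astl promoter held 3 matches, at -109, -83 and -59, and all 3 were CAGGTG. Oosp1 held 5, at -249, -194, -93, -59 and -48, of which those at -249 and -59 read CAGGTG on the opposite strand. Oosp2 held 1, at -60, and the first Astl promoter, at the start of the deposited gene model, held 0. CANNTG is common: 72.3% of 32851 promoters of the same length held at least 1, with a mean of 1.39, and 17.6% held 3 or more. CAGGTG was present in 20.2% of promoters, and 0.365% held 3 or more, as Astl did. Among the other motifs searched on both strands, TATAA stood at -29 in Zp3, and again at -160, and was present in 24.9% of promoters. CACGTG, also contained in CANNTG, stood at -181 in Zp3 and was present in 7.15%. TAATTG and TAATTA, searched as forms of the NOBOX element, had no match in these windows and were present in 8% and 5.29% of promoters. These are matches of letters only.

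The libraries held 36280148 to 44575222 counts. Rpa1 had 140.01 to 156 CPM (counts scaled to a common library size with TMM factors) in the Control libraries and 4.14 to 7.76 CPM in the OcKO libraries, lower in all 3 as labelled (log2 fold change -4.59, adjusted p = 0.0064 in edgeR). Leaving out Control replicate 2 gave it an adjusted p of 0.0526, leaving out Control replicate 3 gave 0.0588, and leaving out OcKO replicate 3 gave 0.0959. The 10 oocyte markers summed to 24822 to 36710.5 CPM in Control and 21304 to 25155 CPM in OcKO. Granulosa and cumulus markers, 15 genes, summed to 60.8 to 107 CPM and 98.1 to 118 CPM, and 9 of the 15 were tested with 0 called. Of these markers, Nr5a2 had 6663 counts over all 6 libraries, Cyp19a1 had 5972 and Inha had 4756, while Foxl2 had 4 and Ptx3 had 0. Inha had 12.7 ± 2.26 CPM in the Control libraries and 26.5 ± 15.3 CPM in the OcKO libraries (adjusted p = 0.535 in edgeR). Like Inha, 6 of the 9 tested markers had a positive log2 fold change, and 3 had a negative one. The 3 were Cyp19a1 (-0.35), Fshr (-0.71) and Hsd17b1 (-0.55). Has2, not tested, had 0 counts in Control and 4.45, 1.98 and 0 CPM in OcKO. Theca and stroma markers, 8 genes, summed to 7.08 to 12.3 and 9.62 to 22.1 CPM, and 4 blood markers to 3.33 to 11.2 and 0.829 to 7.61 CPM. Marker sums are CPM of the library total. CPM is a share of a library, so fewer cells of a type and less RNA per cell cannot be told apart.

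Zona transcripts were among the most abundant RNAs of these oocytes in both groups. Levels between genes are compared as RPKM, which is CPM divided by the exonic length in kilobases. Zp3 stood at 3470.3 ± 763 RPKM in Control and 3179 ± 739 RPKM in OcKO (SD, n = 3), and ranked between 3 and 6 of the 16060 tested genes in every library. Zp2 stood at 1864 ± 534 and 1693 ± 613 RPKM (rank 7 to 23), Zp1 at 978 ± 202 and 808 ± 172 RPKM (rank 21 to 54) and Astl at 888 ± 359 and 749.7 ± 189 RPKM (rank 25 to 62). The OOSP genes were lower. Oosp1 stood at 546 ± 18.3 and 488 ± 129.99 RPKM (rank 51 to 85), Oosp3 at 361 ± 64.3 and 298 ± 162 RPKM (rank 79 to 219) and Oosp2 at 383 ± 58.1 and 239 ± 66.0 RPKM (rank 100 to 233).

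The order of Zp3 above Zp2 above Zp1 held in 6 of 6 libraries, as did Oosp1 above Oosp3. Zp3 was 1.57 to 2.35 times Zp2 per length, and Zp2 was 1.54 to 2.78 times Zp1. The other neighbours in the order did not separate: Zp1 was above Astl in 4 of 6 libraries, Astl above Oosp1 in 5 of 6 and Oosp3 above Oosp2 in 3 of 6. OcKO replicate 2 was the library in which Oosp1 (637 RPKM) stood above Astl (562 RPKM) and above Zp1 (616 RPKM).

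**Figure D1:**
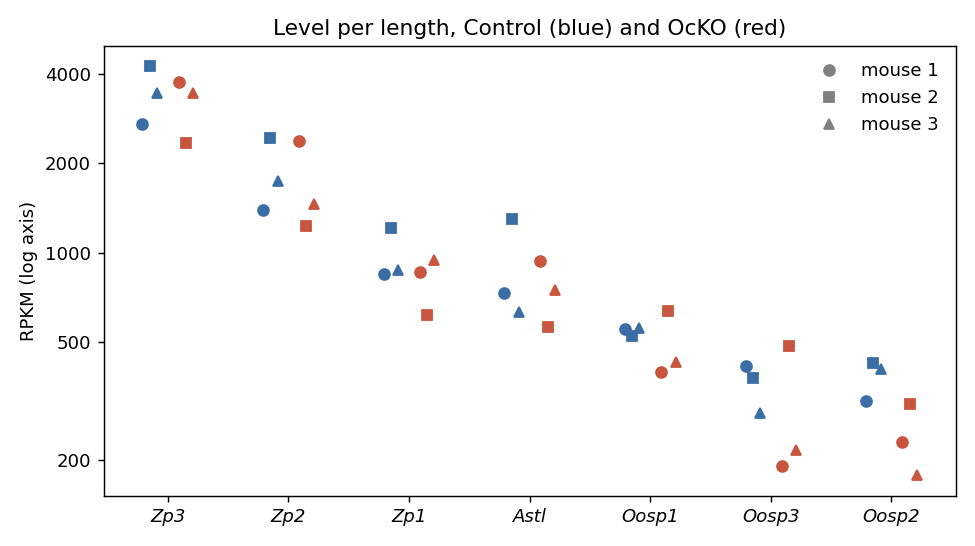
Level per length (RPKM, log axis) of the 7 genes in each of the 6 libraries, ordered by mean level, with 1 point per library, Control in blue and OcKO in red. Zp3 is the highest of the 7 in all 6 libraries, and the points of Zp1 and Astl, and of Oosp3 and Oosp2, overlap.

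Differences of the zona genes between Control and OcKO were smaller than the spread of the libraries. Zp1 (ENSMUSG00000024734, chromosome 19, 10914287 to 10920632, minus strand, GRCm38, 12 exonic blocks) stood at 1686, 2399 and 1729 CPM in Control and 1702, 1221 and 1880.2 CPM in OcKO. The groups overlapped, and OcKO replicate 2 was the lowest library. The means were 1938 ± 400.03 and 1601 ± 341 CPM (SD, n = 3; log2 fold change -0.28 with an SE of 0.23, adjusted p = 0.745 in edgeR). The 95% interval of the fitted change ran from 0.571 to 1.20 times Control.

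Zp2 (ENSMUSG00000030911, chromosome 7, 120126772 to 120145291, minus strand, 18 exonic blocks), whose product sperm bind, stood at 3802, 6659.8 and 4769 CPM in Control and 6503, 3348 and 3983 CPM in OcKO. Its highest library was Control replicate 2, closely followed by OcKO replicate 1, so that each group held 1 high library. The means were 5077 ± 1454 and 4611 ± 1669 CPM (log2 fold change -0.14 with an SE of 0.31, adjusted p = 0.927 in edgeR; interval 0.553 to 1.49 times Control). Zp3 (ENSMUSG00000004948, chromosome 5, 135980099 to 135988624, plus strand, 8 exonic blocks), the other repeating unit, stood at 3599.98, 5619 and 4555 CPM in Control and 4964, 3102 and 4553 CPM in OcKO. Again Control replicate 2 was highest and OcKO replicate 2 lowest. The log2 fold change was -0.13 (SE 0.24, edgeR adjusted p = 0.914; interval 0.618 to 1.36 times Control). The signs of Zp2 and Zp3 turned positive when libraries were scaled by their size alone, at 0.036 and 0.055. They also turned without Control replicate 2 (0.14 and 0.075) and without OcKO replicate 2 (0.079 and 0.087).

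Astl (ENSMUSG00000050468, chromosome 2, 127338639 to 127357651, plus strand, 11 exonic blocks), which encodes the protease that cleaves ZP2, stood at 1880.2, 3324 and 1617 CPM in Control and 2405, 1439 and 1913 CPM in OcKO. Control replicate 2 was 2.06 times Control replicate 3, the widest spread of a member within Control. The groups overlapped (means 2274 ± 919 and 1919 ± 483 CPM; log2 fold change -0.24 with an SE of 0.32, adjusted p = 0.860 in edgeR). The interval was 0.507 to 1.41 times Control, and without Control replicate 2 the log2 fold change was 0.16.

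The 3 Oosp genes lie together on chromosome 19, within 64.6 kb (11647279 to 11711874) and 727 kb beyond Zp1, and Oosp1 and Oosp2 are neighbours on the same strand. Oosp2 (ENSMUSG00000055895, 11647279 to 11660559, minus strand, 4 exonic blocks) was the member with the largest fitted difference. It stood at 215, 288 and 275 CPM in Control and 156, 209.8 and 121 CPM in OcKO. All OcKO libraries lay below all Control libraries, with a narrow gap between OcKO replicate 2 and Control replicate 1. The means were 259.6 ± 39.4 and 162 ± 44.8 CPM (log2 fold change -0.68 with an SE of 0.24, adjusted p = 0.347 in edgeR), and the interval was 0.422 to 0.928 times Control. It was thus not called over all genes. With library size alone the groups overlapped, since OcKO replicate 2 (214 CPM) then stood above Control replicate 1 (207 CPM).

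Oosp1 (ENSMUSG00000041857, 11667460 to 11691150, minus strand, 5 exonic blocks) stood at 539, 510.1 and 543 CPM in Control, the tightest group of any member with a coefficient of variation of 3.35%. In OcKO it stood at 386, 619 and 418 CPM, with replicate 2 above and the others below every Control library. The log2 fold change was -0.16 (SE 0.21, edgeR adjusted p = 0.864; interval 0.635 to 1.26 times Control), and it was 0.0027 with library size alone. Oosp3 (ENSMUSG00000055933, 11697055 to 11711874, plus strand, 6 exonic blocks) stood at 341, 311 and 238 CPM in Control and 158, 399 and 179 CPM in OcKO. It had the same order of OcKO libraries as Oosp1, with replicate 2 at 2.53 times replicate 1. The log2 fold change was -0.28 (SE 0.37, edgeR adjusted p = 0.864; interval 0.456 to 1.49 times Control), and it was -0.78 without OcKO replicate 2 (adjusted p = 0.233). Exons of Oosp3 share 57 bases with an antisense gene, Gm19224, which had 0 counts.

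**Figure D2:**
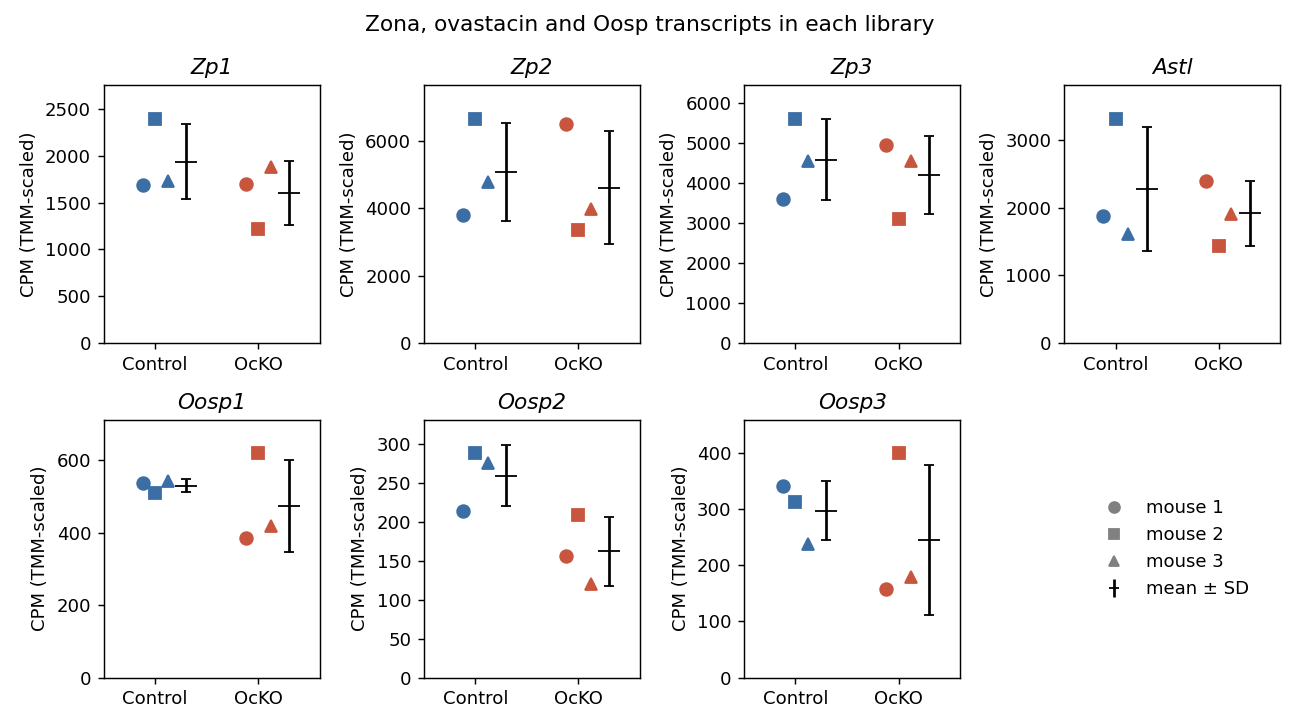
TMM-scaled CPM of the 7 genes in each library, with 1 point per mouse and the mean ± SD of 3 libraries beside it, each axis starting at 0. Oosp2 is the one gene whose OcKO points (121 to 209.8 CPM) all lie below its Control points (215 to 288 CPM).

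Of the 7 members, edgeR called 0 at an adjusted p under 0.05, where 0.143% of all tested genes were called (0.137% higher and 0.00623% lower). At an unadjusted p under 0.05, 1 member was lower, where 5.21% of tested genes were lower at that p. DESeq2 and limma voom also called 0 members, and DESeq2 called 4.84% of the genes to which it gave an adjusted p. Libraries did not overlap for 1 of 7 members, with OcKO below, where 8.67% of all tested genes showed this. With library size alone it was 0 of 7, beside 5.26%. All 7 fitted log2 fold changes were negative, with a median of -0.24, beside a median of 0.01 over all tested genes, of which 49.2% were negative. Among the 2297 tested genes with a mean of at least 100 CPM, as all 7 members have, the median was -0.14 and 64.7% were negative. Negative signs were not particular to the members: of the 10 oocyte markers, 8 were negative and 2 positive, and their median was -0.45. For 3 of these 10 markers OcKO lay below Control without overlap, and for 0 above. At an unadjusted edgeR p under 0.05, 2 of the markers were lower and 0 higher, and 0 were called. Members were not tested against markers. The negative sign did not hold for all 7 members under other settings: Zp2, Zp3 and Oosp1 were positive with library size alone, and Zp2, Zp3 and Astl without Control replicate 2.

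**Figure D3:**
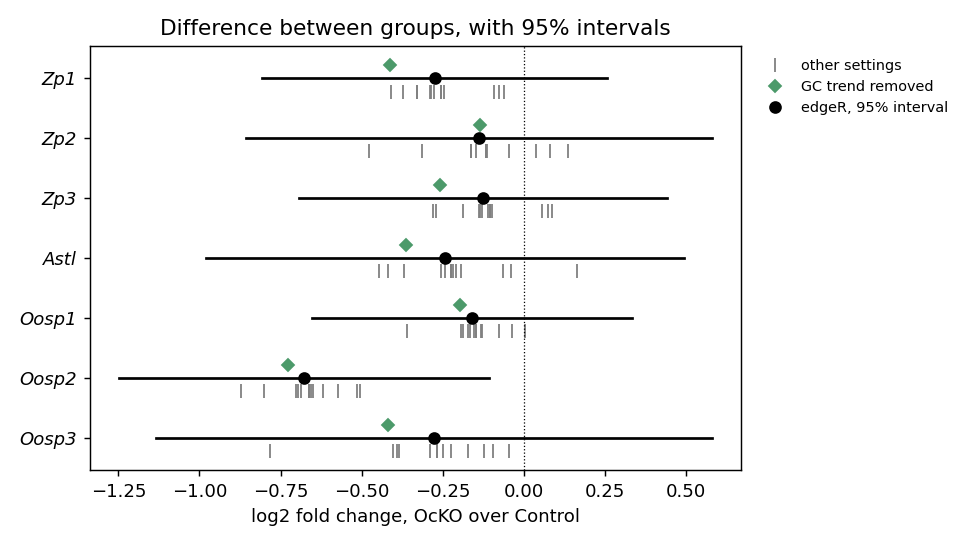
Fitted log2 fold change of OcKO over Control (black point) with its 95% interval for each gene, grey ticks for 13 other settings and a green diamond for the fit with each library's GC trend removed. The interval crosses 0 for every gene except Oosp2, which spans -1.25 to -0.11.

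Together the 7 genes took 1.16%, 1.75% and 1.30% of all counts in Control and 1.69%, 1.05% and 1.46% in OcKO. The means were 1.40 ± 0.308% and 1.40 ± 0.321% (SD, n = 3; exact two-sided permutation p = 1; 3 against 3 libraries cannot give a p under 0.1). The zona genes alone took 1.09 ± 0.238% and 1.10 ± 0.297% (exact permutation p = 0.9). The balance of the zona subunits was compared with the same permutation test, which cannot give a p under 0.1 and so cannot show an unchanged balance. Per length, Zp3 made up 53.7% to 56.8% of zona RNA in Control and 53.6% to 58.8% in OcKO, Zp2 28.1% to 30.9% and 25.0% to 34.1%, and Zp1 14.4% to 17.1% and 12.3% to 16.2%. The per-length ratio of Zp1 to Zp3 was 0.284 ± 0.0297 in Control and 0.256 ± 0.0242 in OcKO. The ratio of Zp1 to Zp2 was 0.534 ± 0.0651 and 0.503 ± 0.145, and that of Zp2 to Zp3 was 0.532 ± 0.0376 and 0.528 ± 0.106 (exact two-sided permutation p = 0.4, 0.9 and 1 for the 3 ratios on the log2 scale, each 1 when adjusted over the 3). The spread of the ratios to Zp2 was wider among OcKO libraries than among Control libraries, and this difference in spread was not tested.

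With TMM scaling, to which the values of this paragraph belong, the members fell into groups that varied together across libraries. As given further on, the grouping did not hold for Oosp2 once GC trends were removed. Negative correlations of zona genes or Astl with Oosp genes then became weaker or positive. Zp1, Zp2, Zp3 and Astl were all at their highest in Control replicate 2 and at their lowest in OcKO replicate 2. Their 6 pairs had a Pearson's r of log2 CPM between 0.70 and 0.89 over the 6 libraries, and between 0.70 and 0.90 for deviations from the group means. Oosp1 and Oosp3 were at their highest in OcKO replicate 2 and at their lowest in OcKO replicate 1, with an r of 0.93. The 3 Oosp pairs had r between 0.63 and 0.93. Of the 12 pairs that join a zona gene or Astl with an Oosp gene, 8 had a negative r, and the lowest was that of Zp3 with Oosp1, at -0.62. The summed zona CPM was 8.30, 13.2 and 10.5 times the summed Oosp CPM in Control, and 18.8, 6.25 and 14.5 times in OcKO. These correlations are descriptions over 6 libraries that share their scaling.

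The libraries also differed in how GC-rich and GC-poor genes stood. Of the tested genes, 99.6% had a GC value from the longest transcript in GENCODE M21, and the 4117 of them with a mean of at least 50 CPM were split into 5 equal groups by GC content. In OcKO replicate 2 the GC-richest group stood apart from the GC-poorest group by -0.69 on the log2 scale (medians of log2 CPM centred on each gene's mean). In OcKO replicate 3 it stood higher by 0.56, and in the other 4 libraries the difference lay between -0.11 and 0.19. The Oosp transcripts are GC-poor, at 42.0% (Oosp1), 42.1% (Oosp2) and 38.7% (Oosp3), all in the GC-poorest group (33.1% to 43.5%). Zp1 (55.1%) and Zp3 (56.1%) are in the GC-richest group (53.9% to 73.7%), Astl is at 53.3% and Zp2 at 45.4%, below the median of 48.7%. In OcKO replicate 2, Zp1 and Zp3 were low and Oosp1 and Oosp3 high in the direction of their GC groups. Zp2 was not: it stood at -0.48 there, where the median of its GC group (43.5% to 47.0%) was 0.11.

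**Figure D4:**
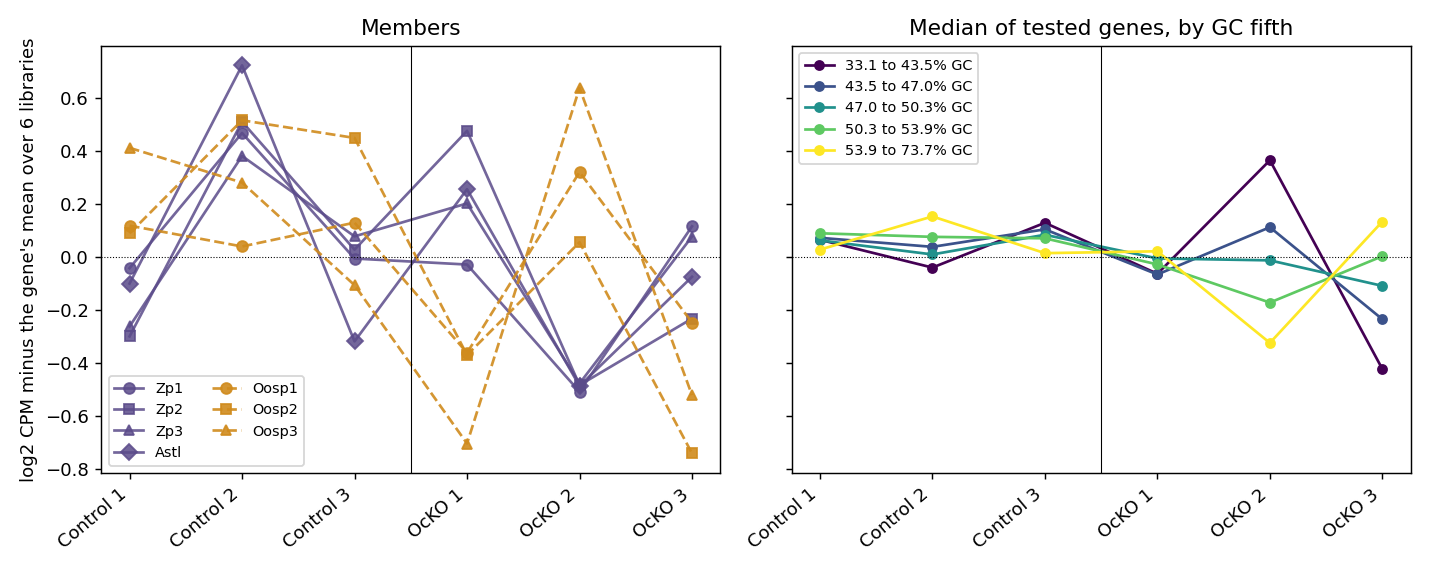
Left, log2 CPM of each member minus its mean over the 6 libraries (zona genes and Astl as solid lines, Oosp genes as dashed lines, lines joining the points of 1 gene). Right, the median of the same value over tested genes of at least 50 CPM, in 5 equal groups by GC content. In OcKO replicate 2 the zona genes and Astl are at their lowest, Oosp1 and Oosp3 at their highest, and GC-rich genes lie below GC-poor genes.

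With the GC trend of each library removed, a setting chosen after seeing the data, the spread within OcKO narrowed for some members and no member was called by edgeR. Oosp2 then stood at 214, 307 and 263 CPM in Control and 159.95, 167 and 146 CPM in OcKO, and its OcKO standard deviation went from 44.8 to 10.9 CPM (log2 fold change -0.73, edgeR adjusted p = 0.117). Zp1 stood at 1753, 2440.2 and 1853 CPM and 1581, 1387 and 1571 CPM, so that its groups no longer overlapped (log2 fold change -0.41, adjusted p = 0.326). Oosp1 stood at 538, 543 and 517 CPM and 395, 493 and 507 CPM, also without overlap (log2 fold change -0.20, adjusted p = 0.638). Libraries then did not overlap for 3 of 7 members, all with OcKO below, where 11.7% of tested genes showed this. Zp2 kept its spread, at 3718 to 7039 CPM in Control and 2939 to 6688 CPM in OcKO, and in OcKO replicate 2 it went from 3348 to 2939 CPM. The pairs of a zona gene or Astl with an Oosp gene then had r between -0.35 and 0.89. Their median r was 0.29, where it was -0.36 with TMM scaling alone. Zp3 with Oosp1 went from -0.62 to 0.0016. The pairs among Zp1, Zp2, Zp3 and Astl had r between 0.65 and 0.83, and the Oosp pairs had r between 0.50 and 0.87. Oosp2 no longer stood with the Oosp genes: its r was 0.89 with Zp1 and 0.74 with Zp3, beside 0.58 with Oosp1 and 0.50 with Oosp3.

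The genes most like the zona profile (the mean of centred log2 CPM of Zp1, Zp2 and Zp3) over the 6 libraries, of 3973 candidates, were Vps37c (Pearson's r = 0.979), Padi6 (0.977), Cd2bp2 (0.973), Mbtps1 (0.964) and Sin3b (0.958). Padi6, a component of the cytoplasmic lattices of the egg, had a mean of 9532 CPM in Control and of 8738 CPM in OcKO. Astl was at rank 52 with r = 0.891, and Oosp1 at rank 3404 with r = -0.56. Most like the Oosp profile were Haspin (0.997), Cwf19l2 (0.996), Neil3 (0.996), C87436 (0.982) and Znrf2 (0.981). Haspin, a histone H3 kinase, stood at 156 and 121 CPM. None of these 10 genes was called by edgeR (adjusted p of 0.645 to 0.957). The 5 genes like the zona profile had a GC content of 50.2% to 57.8%, and the 5 like the Oosp profile 39.1% to 51.4%.

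Genes listed as zona transcription regulators were not called in either direction (0 of 11 tested, median log2 fold change -0.12). Whether each of them acts on zona genes in these oocytes was not tested. Figla stood at 24.9, 19.6 and 24.9 CPM in Control and 24.6, 24.6 and 28.0 CPM in OcKO (log2 fold change 0.15, edgeR adjusted p = 0.907). It and Nobox were named for their known role after their values were seen. Nobox, an oocyte homeobox factor, stood at 727, 634 and 727 CPM and 980.4, 564 and 989.8 CPM, again with OcKO replicate 2 lowest. The 3 with the smallest p were Gata4 (17.6 ± 9.40 and 6.64 ± 0.692 CPM), Tcf4 (6.41 ± 5.29 and 0.894 ± 0.382 CPM) and Tbpl2, the oocyte TBP paralog (21.1 ± 2.88 and 31.6 ± 7.32 CPM).

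Genes of ovastacin control and cortical granule release gave 0 calls of 26 tested (median log2 fold change -0.23). OcKO lay below Control without overlap for 7 of the 26 and above for 2, where 8.67% and 10.7% of all tested genes did so. Unadjusted edgeR p was under 0.05 for 5 lower genes: Rab27a, Myo5b, Myo5a, Fetub and Zbed3. Over all tested genes 5.21% were lower at that p. Vamp2 was the 1 higher gene at that p, and it passed the filter through OcKO alone. Fetub, Zbed3 and Vamp2 are named on the strength of their values. Rab27a, a small GTPase of cortical granule transport, stood at 84.4, 59.1 and 76.9 CPM in Control and 44.5, 49.9 and 34.6 CPM in OcKO (log2 fold change -0.77, edgeR adjusted p = 0.286). Myo5b, a myosin motor of vesicle transport, stood at 1026 ± 13.4 and 682 ± 170.3 CPM (adjusted p = 0.318), and Myo5a at 71.8 ± 8.93 and 48.0 ± 5.10 CPM (adjusted p = 0.369). Fetub, the gene of fetuin-B, which inhibits ovastacin, stood at 127 ± 6.38 and 90.1 ± 16.3 CPM (log2 fold change -0.49, adjusted p = 0.408). Zbed3 stood at 4899 ± 324 and 3697 ± 472 CPM (adjusted p = 0.408). On the higher side, Vamp2 stood at 0.173 and 0.999 CPM. Its Control libraries (0.221, 0.185 and 0.115 CPM) lay near the floor, so it could hardly come out lower.

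Genes of zona cleavage and quality control gave 0 calls of 15 tested (median -0.08). Furin, a proprotein convertase of the type that cuts zona precursors, stood at 80.4, 112 and 75.0 CPM in Control and 54.0, 40.8 and 71.5 CPM in OcKO (log2 fold change -0.69, edgeR adjusted p = 0.425). Pcsk7, another convertase, stood at 8.85 ± 2.79 and 18.0 ± 7.98 CPM, and Ero1lb, an oxidase of disulfide formation, at 159 ± 35.6 and 119 ± 5.08 CPM. Glycan synthesis genes gave 0 calls of 16 (median 0.21). B4galnt2 had 0 Control counts and passed the filter through OcKO alone, so it could only come out higher. It stood at 1.51, 2.13 and 0.861 CPM in OcKO (adjusted p = 0.120 in edgeR and 0.00866 in DESeq2). Mgat2 stood at 0.196 ± 0.0913 and 1.33 ± 0.533 CPM, and Fut8, the core fucosyltransferase, at 117 ± 16.2 and 71.4 ± 21.1 CPM. Mgat2 was near the floor in Control (0.193, 0.105 and 0.288 CPM). It passed the filter through OcKO, so it could hardly come out lower. Genes of entry into the endoplasmic reticulum gave 0 calls of 23 (median 0.02), and the smallest p belonged to Spcs3, a signal peptidase subunit, at 5.81 ± 1.20 and 18.3 ± 10.9 CPM. Srp68 stood at 69.5 ± 8.93 and 43.2 ± 13.1 CPM, and Sec61b at 64.0 ± 27.8 and 36.8 ± 3.15 CPM.

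Genes listed under transzonal contact, by projections and junctions that cross the zona, gave 0 calls of 12. Of their log2 fold changes 10 of 12 were negative, with a median of -0.56. Whether each of the 12 serves such contact in these oocytes, sequenced without cumulus cells, was not tested. Over all tested genes 49.2% were negative, with a median of 0.01, and among those of at least 100 CPM 64.7% were, with a median of -0.14. Most of the 12 (Fmn2, Cdh2, Gja1, Gja5, Fscn1, Ezr and Msn) lie below that level. Myo10, a filopodial myosin, stood at 622, 649.97 and 447 CPM in Control and 334, 183 and 203 CPM in OcKO, with a clear gap between the groups. Its log2 fold change was -1.26 with an SE of 0.28 (adjusted p = 0.127 in edgeR, 0.00128 in DESeq2 and 0.185 in limma voom). Cdh1, which encodes E-cadherin, stood at 442 ± 124 and 282 ± 48.3 CPM, and Fmn2, an actin nucleator of the oocyte, at 90.8 ± 1.63 and 61.0 ± 14.7 CPM (adjusted p = 0.398 and 0.413). Gja4, the connexin of the oocyte side, named for that role after its values were seen, stood at 797, 694 and 729 CPM and 568, 637 and 778 CPM.

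Among hyaluronan and cumulus matrix genes, 1 of 8 tested, Hapln3, was called, higher in OcKO, and 0 lower (median -0.20). Over all tested genes 0.137% were called higher and 0.00623% lower. Hapln3 and Vcan had no Control counts and passed the filter through OcKO alone, so they could only come out higher. Hapln3 encodes a link protein that holds hyaluronan to proteoglycans. It had 0 counts in all Control libraries and stood at 12.9, 19.5 and 32.7 CPM in OcKO (edgeR adjusted p = 0.0450). The call was lost without any 1 of the 6 libraries (adjusted p of 0.103 to 0.326), and with limma voom (0.185). The sums of granulosa and cumulus markers overlapped between the groups (60.8 to 107 CPM in Control and 98.1 to 118 CPM in OcKO). Their part in the Hapln3 result was not tested. Vcan, the proteoglycan versican, also had 0 Control counts and stood at 0.685, 1.65 and 3.50 CPM (adjusted p = 0.120 in edgeR and 0.00272 in DESeq2). Bmp15, an oocyte growth factor, had the third smallest p of this list (6157 ± 1445 and 3216 ± 847 CPM, adjusted p = 0.203 in edgeR and 0.0101 in DESeq2). The other ZP domain genes were low: of 11 found in the table, 3 were tested and 0 called. Dmbt1 stood at 21.9 ± 10.6 and 33.4 ± 7.27 CPM, Zpld1 at 4.23 ± 0.645 and 5.03 ± 4.34 CPM, and Tgfbr3 at 51.1 ± 5.21 and 49.8 ± 4.34 CPM. Of the astacin relatives, 2 of 5 were tested and 0 called, Mep1b at 19.6 ± 4.35 and 8.44 ± 4.84 CPM and Tll1 at 44.2 ± 21.0 and 35.6 ± 10.6 CPM. Plac1, the relative of the OOSP genes, stood at 2.01, 0 and 0 CPM in Control and 2.97, 9.02 and 8.89 CPM in OcKO (edgeR adjusted p = 0.623). With 0 CPM in Control replicates 2 and 3, Plac1 passed the filter through OcKO.

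Most genes beside the members had low levels. Oosp2 is flanked on its other side by Ms4a3 (mean of 1.06 CPM in Control, 0.457 CPM in OcKO) and Oosp3 by Gif (1.53 and 0.420 CPM). Gm26183 and Gm25443, between Oosp1 and Oosp3, had 0 counts. Zp1 lies between Prpf19 (38.5 and 51.5 CPM) and Ptgdr2 (0 and 0.352 CPM), and Zp2 between Tmem159 (17.7 and 13.9 CPM) and 4930505K13Rik (0.788 and 0.433 CPM). Zp3 lies between Ssc4d (30.8 and 31.7 CPM) and Dtx2 (818 and 658 CPM), an E3 ubiquitin ligase gene 6.18 kb beyond it. Astl lies between Dusp2 (1.87 and 5.94 CPM), which ends 0.262 kb before it, and Adra2b (4.16 and 0.713 CPM). edgeR called 0 of the neighbours tested.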

How the data were processed

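Each library came from a pool of GV oocytes of 1 mouse, made with a low-input RNA kit per the labels' protocols. The authors deposited raw counts per gene. The submitters' processing notes name Trimmomatic 0.36, STAR 2.5.2b, Subread 1.5.2 with featureCounts, and GRCm38. Annotation release, strand setting and handling of multi-mapped reads: not given in the sources used here. Values of the series table and of the single files differed in 0 cases. Gene lengths and coordinates are the deposited ones.

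Groups were compared with edgeR 4.0.16 (quasi-likelihood test, TMM scaling, filterByExpr) in R 4.3.3, with Benjamini-Hochberg adjustment over all tested genes and a call at an adjusted p under 0.05. SEs were derived from the F statistic, and 95% intervals use the degrees of freedom of the test. log2 CPM has a prior count of 2. GC trends were loess curves (span 0.5) of centred log2 CPM on GC percent, used as offsets. DESeq2 1.42.0 and limma 3.58.1 were alternatives. Scripts were tested on simulated data. Members, lists and rules were chosen with earlier results of these data known. Named are the members, in each list the called genes and the 3 with the smallest p, the 5 named genes most like each profile (mean of at least 50 CPM) and the neighbours. No library pair was a duplicate (lowest chi-square per degree of freedom 122.7).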

Additional observations from a re-analysis of the deposited data

How the results depend on the processing

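No member was called under any of the 14 alternatives to the edgeR fit, with adjusted p between 0.117 and 0.997. The median log2 fold change of the members stayed negative, between -0.36 and -0.06. Library size alone gave Zp2, Zp3, Oosp1, Tgfbr3 and Gja4 log2 fold changes of 0.036, 0.055, 0.0027, 0.13 and 0.013, while the median of all tested genes went from 0.01 to 0.18. Without Control replicate 2, Zp2, Zp3 and Astl stood at 0.14, 0.075 and 0.16, and without OcKO replicate 2, Zp2 and Zp3 at 0.079 and 0.087. Over all fits without 1 library, Zp2 ranged from -0.48 to 0.14, Zp3 from -0.28 to 0.087, Astl from -0.45 to 0.16, Tgfbr3 from -0.092 to 0.067, Zpld1 from -0.75 to 0.60 and Tll1 from -0.64 to 0.061. Oosp2 stayed between -0.87 and -0.51. The calls over all genes, 23 in edgeR, were 755 with DESeq2, 1 with limma voom, 72 at a mean of at least 5 CPM, 0 with a replicate block and 0 to 5 without 1 library. DESeq2 values are printed above for Myo10, Bmp15, Vcan and B4galnt2, which it called. It did not call Oosp2 (adjusted p = 0.126), Rab27a (0.0846) or Spcs3 (0.0590). For Myo10, Bmp15, Vcan and B4galnt2, limma voom gave adjusted p of 0.185 to 0.212 and the replicate block gave 0.481. Same-numbered mice were not paired by the labels, and their deviations from the group means correlated at -0.04 in all 3 pairs. The block ended the calls of Rpa1 (adjusted p = 0.159) and Hapln3 (0.460), and gave Zpld1 a log2 fold change of -0.10, as limma voom did at -0.060. With the GC trend removed there were 34 calls. Without 1 library, the group difference in the summed share of the members lay between -0.146 and 0.171 percentage points, and that of the zona genes between -0.115 and 0.177. With the 100 most abundant other genes left out of the denominator, the latter was -0.0360. On the log2 scale the differences in the ratios of Zp1 to Zp2, Zp1 to Zp3 and Zp2 to Zp3 lay between -0.32 and 0.10, -0.23 and -0.07, and -0.17 and 0.12 without 1 library. Raw count ratios give the same differences by construction. The causes of these shifts were not tested. With 3 libraries per group the intervals of the members still allow changes from 1.57-fold lower (Oosp1) to 2.37-fold lower (Oosp2) at their lower bounds. At their upper bounds they allow 1.20 (Zp1) to 1.49 (Zp2 and Oosp3) times Control, except for Oosp2, where the bound was 0.928.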
